A study of Mus musculus with 9 samples.

Results

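The NR4A family holds 3 genes, Nr4a1 (Nur77), Nr4a2 (Nurr1) and Nr4a3 (Nor1), and all 3 were found by their Entrez identifiers among the 27179 genes of the count table. RNA was measured in alveolar macrophages, the resident phagocytes of the airspaces, sorted by fluorescence-activated cell sorting from lungs of C57BL/6 mice aged 1 week. Of the 9 libraries, 5 were labelled Suz12 cKO, a knockout of Suz12, and 4 wild type (WT), all called biological replicates. The sources used here do not give the Cre driver, the deleted exons, the sorting gate or whether a library is 1 mouse or a pool, so p-values measure the spread between these libraries. The family was picked for description with its higher level in the cKO libraries already known, so the differences between genotypes below are descriptions of the members and not tests of them.

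NR4A proteins are transcription factors of the nuclear receptor superfamily for which no classical hormone is established, and their activity is set mainly by how much of them is made. Their genes belong to the immediate early class, which is transcribed within minutes of a stimulus without new protein synthesis, through CREB, MEF2, SRF and NF-kB. They bind the NBRE sequence as monomers, and Nr4a1 and Nr4a2 can pair with the retinoid X receptors. In macrophages they are induced by inflammatory stimuli and are known for restraining NF-kB target genes, and mice need Nr4a1 to make nonclassical monocytes. SUZ12 is a core subunit of Polycomb repressive complex 2, which methylates histone H3 and keeps many CpG-rich promoters silent.

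The 3 genes lie apart, at chromosome 15, 101253902 to 101274795 (Nr4a1, Entrez Gene 15370), chromosome 2, 57106830 to 57124003 (Nr4a2, 18227) and chromosome 4, 48045078 to 48086447 (Nr4a3, 18124) in GRCm38.p6 coordinates (the mm10 assembly). None of these spans overlaps another counted gene. Their promoters are shown because cAMP-responsive elements (CRE) are the textbook inputs to this family. Any part of such elements in the difference between genotypes was not tested. Each window runs from 250 bases before to 50 after the RefSeq start, 5′ to 3′ on the gene's strand, and capitals mark every match to the CRE core TGACG on either strand (printed as CGTCA where the match is on the other strand).
Nr4a1: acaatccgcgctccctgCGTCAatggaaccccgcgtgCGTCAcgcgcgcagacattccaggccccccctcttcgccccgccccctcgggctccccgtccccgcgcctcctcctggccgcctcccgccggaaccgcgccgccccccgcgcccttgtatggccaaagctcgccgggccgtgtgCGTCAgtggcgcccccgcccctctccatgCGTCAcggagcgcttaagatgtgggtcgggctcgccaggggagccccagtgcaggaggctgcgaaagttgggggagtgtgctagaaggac
Nr4a2: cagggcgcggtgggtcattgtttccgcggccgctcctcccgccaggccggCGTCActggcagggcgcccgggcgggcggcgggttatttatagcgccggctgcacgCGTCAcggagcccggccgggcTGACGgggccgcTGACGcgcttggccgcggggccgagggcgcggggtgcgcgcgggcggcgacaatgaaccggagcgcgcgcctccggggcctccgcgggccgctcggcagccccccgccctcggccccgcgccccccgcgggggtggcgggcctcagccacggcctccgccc
Nr4a3: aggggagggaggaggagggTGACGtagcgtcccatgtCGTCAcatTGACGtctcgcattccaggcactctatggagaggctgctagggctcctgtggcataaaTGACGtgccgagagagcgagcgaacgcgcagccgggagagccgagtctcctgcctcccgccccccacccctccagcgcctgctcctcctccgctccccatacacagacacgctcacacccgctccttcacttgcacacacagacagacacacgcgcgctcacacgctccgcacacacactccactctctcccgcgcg

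The windows are chr15:101266596-101266895 on the plus strand (Nr4a1), chr2:57123954-57124253 on the minus strand (Nr4a2) and chr4:48045055-48045354 on the plus strand (Nr4a3). Each gene has 1 window in the table, and other annotated starts were not searched. The gene spans of Nr4a1 and Nr4a3 open upstream of the start used, so that the Nr4a1 window lies wholly inside its gene span and 3 of the 4 Nr4a3 matches do too. Each of the windows held 4 CRE cores. Of 32851 RefSeq promoter windows of the same length, 19.5% held at least 1 core and 33 (0.101%) held 4 or more. All 33 were among the 11765 windows whose CpG count was at least 0.6 of that expected from their bases, of which they made up 0.281%. The core itself contains a CpG, and the observed over expected CpG was 0.913 (Nr4a1), 1.04 (Nr4a2) and 0.866 (Nr4a3), against a median of 0.384 over all windows. The GC content was 72.3% (Nr4a1), 81.7% (Nr4a2) and 64.7% (Nr4a3), against a median of 52.7%. The same windows held no full CRE (TGACGTCA, in 1.79% of all windows), no NBRE (AAAGGTCA, 1.51%), no AP-1 site (TGANTCA, 7.81%) and no CArG box, the SRF site (1.63%). A TATA match (TATAAA, 13.6%) was present in Nr4a2 only of the 3, at positions -164 to -159 and on the strand opposite to the gene. All of these are matches of letters on both strands, described without a test.

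**Figure D1:**
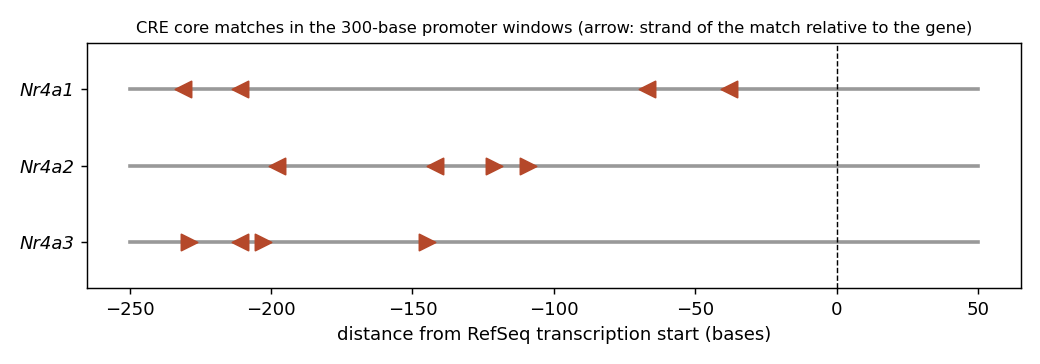
Positions of CRE core matches in the promoter windows of Nr4a1, Nr4a2 and Nr4a3, with the distance from the RefSeq transcription start in bases on the x axis (dashed line, the start) and arrows for the strand of each match. Each gene has 4 matches, all before the start used for its window, and the 2 nearest to it are those of Nr4a1, which begin at -69 and -40.

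Levels are given in CPM, the usual rate of a gene's counts to its library's total, after TMM scaling, which adjusts for composition. Nr4a1, the most abundant member, stood at 565, 769, 669, 628 and 756 CPM in cKO libraries 1 to 5, against 69.1, 145, 274 and 119 CPM in WT libraries 1 to 4. The groups did not overlap, and the lowest cKO library held 2.07 times the CPM of the highest WT library, library 3. Such separation was not rare, as 1399 of 12840 tested genes (10.9%) were higher in every cKO library than in every WT library. In either direction, 2666 genes (20.8%) had groups that did not overlap. The mean was 677 ± 86.1 CPM in cKO (SD, n = 5) and 152 ± 87.2 CPM in WT (SD, n = 4). The fitted log2 fold change was 2.16 (SE 0.37, edgeR).

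Nr4a2, known for its role in dopaminergic neurons and in microglia, stood at 49.4, 116, 36.6, 66.9 and 79.8 CPM in cKO libraries 1 to 5, against 4.20, 11.6, 23.3 and 9.01 CPM in WT libraries 1 to 4. The groups again did not overlap, with the closest approach between cKO library 3 and WT library 3. The mean was 69.8 ± 30.8 CPM in cKO (SD, n = 5) and 12.0 ± 8.11 CPM in WT (SD, n = 4). The fitted log2 fold change was 2.57 (SE 0.54).

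Nr4a3, the least abundant member by mean CPM, stood at 26.0, 48.2, 20.8, 42.6 and 39.0 CPM in cKO libraries 1 to 5, against 0.685, 1.96, 12.0 and 1.14 CPM in WT libraries 1 to 4. WT library 3 held most of the WT signal and still lay below every cKO library. The mean was 35.3 ± 11.5 CPM in cKO (SD, n = 5) and 3.95 ± 5.40 CPM in WT (SD, n = 4). The fitted log2 fold change was 3.30 (SE 0.84), and without WT library 3 it was 4.80 (SE 0.40). Counting error was small beside these gaps. The 15 Nr4a3 counts of WT library 1 give an exact Poisson interval of 0.383 to 1.13 CPM at the 95% level, and the 151 counts of WT library 3 give 10.2 to 14.1 CPM, intervals that cover counting error only.

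**Figure D2:**
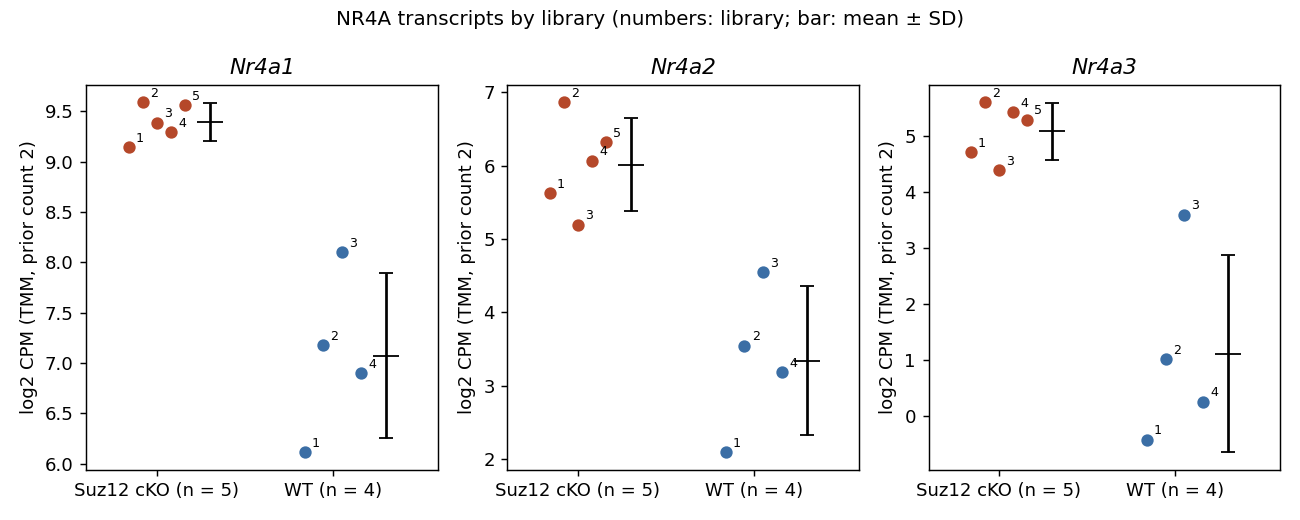
Log2 CPM of Nr4a1, Nr4a2 and Nr4a3 in each library (points, numbered by library), for Suz12 cKO on the left and WT on the right of each panel, with bars for the mean ± SD. In every panel all 5 cKO points lie above all 4 WT points, as for 10.9% of all tested genes, and among WT the order is library 3, 2, 4, 1 for each gene.

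All 3 members passed an adjusted p under 0.05 as higher in the edgeR fit across all genes, in which 8.97% of the 12840 tested genes were called higher, 1152 against 1409 called lower. With libraries scaled by their totals alone, 1960 genes were called higher and 1013 lower, and the median over tested genes moved to a log2 fold change of 0.15, against 0.04 after TMM. Since the family was picked on this contrast, nothing is read from its calls. Nr4a3 had the 133rd largest log2 fold change of all tested genes, Nr4a2 the 211th and Nr4a1 the 275th. The call of Nr4a3 was lost without cKO library 1, 2, 4 or 5 or WT library 2 or 4, with an adjusted p of 0.0502 to 0.067 by edgeR, while its log2 fold change in these fits was at least 2.97. In bulk RNA, fewer cells with the transcript and less transcript per cell cannot be told apart.

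Libraries fell into classes by Xist, the RNA of the inactive X chromosome, which stood at 397 and 360 CPM in cKO libraries 2 and 5 and at 449, 384 and 336 CPM in WT libraries 1 to 3, and at 0.134 CPM or less in the other 4 libraries. Among libraries with Xist, Nr4a1 spanned 756 to 769 CPM in the 2 cKO libraries and 69.1 to 274 CPM in the 3 WT libraries. Among libraries without it, Nr4a1 spanned 565 to 669 CPM in the 3 cKO libraries, against 119 CPM in the single WT library. Nr4a2 and Nr4a3 were likewise higher in every cKO library than in every WT library of the same class. Within the cKO group, Nr4a1 and Nr4a2 were highest in the 2 libraries with Xist, and Nr4a3 was highest in 1 of them, library 2.

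Total counts were 18584016 to 45606001 per cKO library and 13814799 to 25284693 per WT library, with WT library 3 the smallest. The number of genes with at least 1 count did not overlap, at 15364 to 16757 in cKO libraries and 12396 to 13372 in WT libraries. Some abundant RNAs, named after their values were seen, were lower in cKO. Malat1, a nuclear noncoding RNA, was at 80.1 ± 27.2 CPM in cKO and 338 ± 68.0 CPM in WT (adjusted p = 2.28e-04, edgeR). Entrez identifier 100861531, left unnamed by the RefSeq annotation used, was at 2222 ± 765 CPM in cKO and 21406 ± 7065 CPM in WT (adjusted p = 2.62e-04, edgeR). Identifier 19791, also unnamed there, was at 431 ± 147 CPM in cKO and 4254 ± 1360 CPM in WT (adjusted p = 2.14e-04, edgeR). The kind of RNA behind these identifiers was not looked up. The part of these library-wide differences in the NR4A difference was not tested. Suz12 was at 11.9 to 21.8 CPM in cKO and 51.7 to 76.6 CPM in WT, lower in every cKO library than in every WT library, as labelled. The 12 alveolar macrophage markers were all detected, and their summed level, most of it Chil3, overlapped at 13697 to 39079 CPM in cKO and 22029 to 59795 CPM in WT. Of these markers 4 (33.3%) were called by edgeR, against 19.9% of all tested genes. Marco was called higher (log2 fold change 0.54) and Car4 (-0.96), Krt79 (-0.53) and Ctsk (-1.79) lower. Each had groups that did not overlap, as did 20.8% of all tested genes. Of 11 marker lists for other cells, those of interstitial macrophages (5 markers, 17.7 to 25.2 CPM in cKO and 6.89 to 10.6 CPM in WT) and endothelium (5 markers, 4.67 to 7.25 CPM in cKO and 1.05 to 3.92 CPM in WT) did not overlap between the groups. No marker of these 2 lists was at 0 in every library, and their part in the NR4A difference was not tested. The nonclassical monocyte list, of 6 genes, summed to 815 to 1042 CPM in cKO and 789 to 967 CPM in WT, most of it Itgal, with Ace called higher (0.59, adjusted p = 0.00819 by edgeR) and Spn lower (-0.55, adjusted p = 0.0245).

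Nr4a1 was the most abundant member per kilobase in every library. Per kilobase of gene length, Nr4a1 was at 273 ± 34.8 CPM in cKO (SD, n = 5) and 61.2 ± 35.2 CPM in WT (SD, n = 4), far above the other two. Nr4a2 was at 20.9 ± 9.20 CPM per kilobase in cKO and 3.59 ± 2.42 in WT. Nr4a3 was at 18.8 ± 6.11 CPM per kilobase in cKO and 2.09 ± 2.86 in WT. Per kilobase, Nr4a2 was above Nr4a3 in cKO libraries 1, 2 and 5 and below it in cKO libraries 3 and 4, while in WT it was above Nr4a3 in all 4 libraries, by the least in library 3 (6.96 against 6.37 CPM per kilobase). Their ranges over libraries overlapped in both groups. Nr4a1 made up 83.7% to 92.5% of the summed NR4A level per kilobase in cKO libraries and 89.2% to 94.5% in WT libraries. The share of Nr4a3 was 3.79% to 7.64% in cKO libraries, against 1.17% to 1.65% in WT libraries 1, 2 and 4 and 5.14% in WT library 3. The share of Nr4a2 was 3.75% to 9.37% in cKO libraries and 4.25% to 5.62% in WT libraries.

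The members varied more within groups than most genes, Nr4a1 in cKO by the smallest margin of the 3. The SD of log2 CPM of Nr4a1 was 0.19 in cKO and 0.82 in WT, that of Nr4a2 was 0.64 in cKO and 1.01 in WT, and that of Nr4a3 was 0.51 in cKO and 1.75 in WT. Over 10817 tested genes whose mean log2 CPM reached 1, the median SD was 0.16 in cKO and 0.24 in WT. Only 0.73% of these genes had a larger SD in WT than Nr4a3, 3.05% than Nr4a2 and 5.39% than Nr4a1. In cKO the share with a larger SD was 4.2% for Nr4a3, 2.29% for Nr4a2 and 38.3% for Nr4a1.

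Within groups the 3 members deviated together. After each group's mean log2 CPM was subtracted, Pearson's r over the 9 libraries was 0.90 for Nr4a2 with Nr4a3 (Spearman's rho 0.90, adjusted p = 0.00521 and 0.00833 by two-sided exact permutation within groups). It was 0.88 for Nr4a1 with Nr4a2 (rho 0.90, adjusted p = 0.0115 and 0.00833, exact permutation) and 0.93 for Nr4a1 with Nr4a3 (rho 0.83, adjusted p = 0.0115 and 0.0163, exact permutation). Adjustment was over these 3 pairs for each coefficient, and 2880 permutations were enumerated. The 2 libraries farthest from the median were WT libraries 1 and 3 in every pair. Without them r was 0.91 for Nr4a2 with Nr4a3 (exact permutation p = 0.0125), but 0.66 for Nr4a1 with Nr4a2 (p = 0.129) and 0.63 for Nr4a1 with Nr4a3 (p = 0.158), so both relations of Nr4a1 rest on those WT libraries. Without WT library 3 alone the adjusted p of Nr4a1 with Nr4a3 was 0.0569 (r = 0.77, exact permutation), and without WT library 4 it was 0.0708 (r = 0.94). A pooled correlation is not given, since the groups were separate and each had fewer than 6 libraries.

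**Figure D3:**
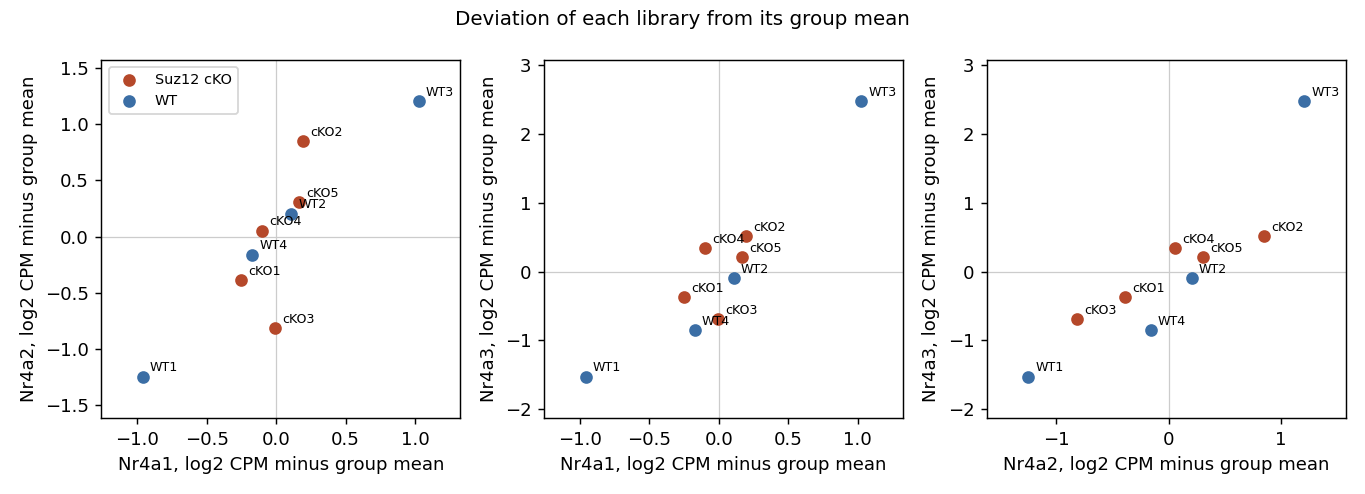
Deviation of each library's log2 CPM from its group mean for the 3 pairs of NR4A genes, with Suz12 cKO libraries in red and WT libraries in blue. WT libraries 3 and 1 form the ends of every panel (for Nr4a3, 2.48 above and 1.53 below the WT mean), and in the third panel the cKO libraries also run along the diagonal.

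By the same group-centred r over 9 libraries, the genes most like each member were sought among 10208 named genes whose mean log2 CPM reached 1, as a description. Nearest to Nr4a1 was Junb (r = 0.98), an AP-1 subunit of the immediate early class, followed by Nt5dc3 and Zfp410 (both 0.96). Junb stood at 916, 1197, 948, 1045 and 1221 CPM in cKO libraries 1 to 5, against 348, 609, 945 and 582 CPM in WT libraries 1 to 4. Nearest to Nr4a2 was Csrnp1 (0.97), a nuclear protein first described as induced by AXIN1, followed by Ptpn9 (0.96) and Rad52 (0.95). Nearest to Nr4a3 were P4ha1 (0.98), Traf5 (0.97) and Baiap2 (0.96). The members were not each other's closest neighbours, as 24 to 86 of the genes searched had a higher r with a member than its fellow member did. Of these 9 neighbours, Csrnp1, Junb and Baiap2 were called higher in cKO, as were 8.97% of all tested genes. Their log2 fold changes were 1.47, 0.78 and 1.30 (adjusted p = 9.32e-05, 0.0477 and 0.0406 by edgeR). With 9 genes, nothing is read from the count of calls. The other 6 were not called and had log2 fold changes from -0.15 to 0.40.

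The next comparison set NR4A receptors beside the other 46 nuclear receptors of the mouse, of which 11 were at 0 in every library and 22 passed the count filter. Nr4a1 had the highest mean level per kilobase of all 49 receptors in cKO and the second highest in WT. In cKO its 273 ± 34.8 CPM per kilobase exceeded the 138 ± 6.62 of Pparg, the receptor that specifies alveolar macrophages, in every library. In WT, Nr4a1 spanned 27.9 to 110 CPM per kilobase and lay below Pparg (112 to 123) in every library, while the third, Rxra, spanned 44.6 to 55.3 and so fell inside the range of Nr4a1. Nr4a2 was 10th in cKO and 17th in WT, and Nr4a3 12th in cKO and 21st in WT. The cKO range of Nr4a2, 10.9 to 34.8 CPM per kilobase, covered those of its neighbours Nr1h3 (19.5 to 27.0) and Nr2f6 (16.9 to 20.5).

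Of the 22 other receptors, 1 was called higher and 1 lower, or 9.09%, against 19.9% of all tested genes called in either direction. Their median log2 fold change was 0.06, close to the 0.04 of all genes. Thra, a thyroid hormone receptor, rose to 19.5 ± 1.48 CPM in cKO, against 11.6 ± 4.51 CPM in WT (edgeR log2 fold change 0.74, SE 0.22, adjusted p = 0.0285). Nr1h3, the oxysterol receptor LXR alpha, was called lower, at 44.5 ± 6.46 CPM in cKO and 58.3 ± 5.87 CPM in WT (-0.39, SE 0.12, adjusted p = 0.0318), and its groups overlapped. Both calls were lost without cKO library 2, 4 or 5 or WT library 1, that of Nr1h3 also without cKO library 1 or WT library 2 or 4, with adjusted p of up to 0.0819 (Thra) and 0.0859 (Nr1h3). Thra also lost its call with Xist class as a covariate, and Nr1h3 with library size only. With the replicate number as a block neither was called (adjusted p = 0.0516 for Thra and 0.117 for Nr1h3, edgeR). Thra shares its locus with Nr1d1 and Nr1h3 with Acp2, and, as the strand setting is unknown, reads of the overlaps could belong to either gene.

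**Figure D4:**
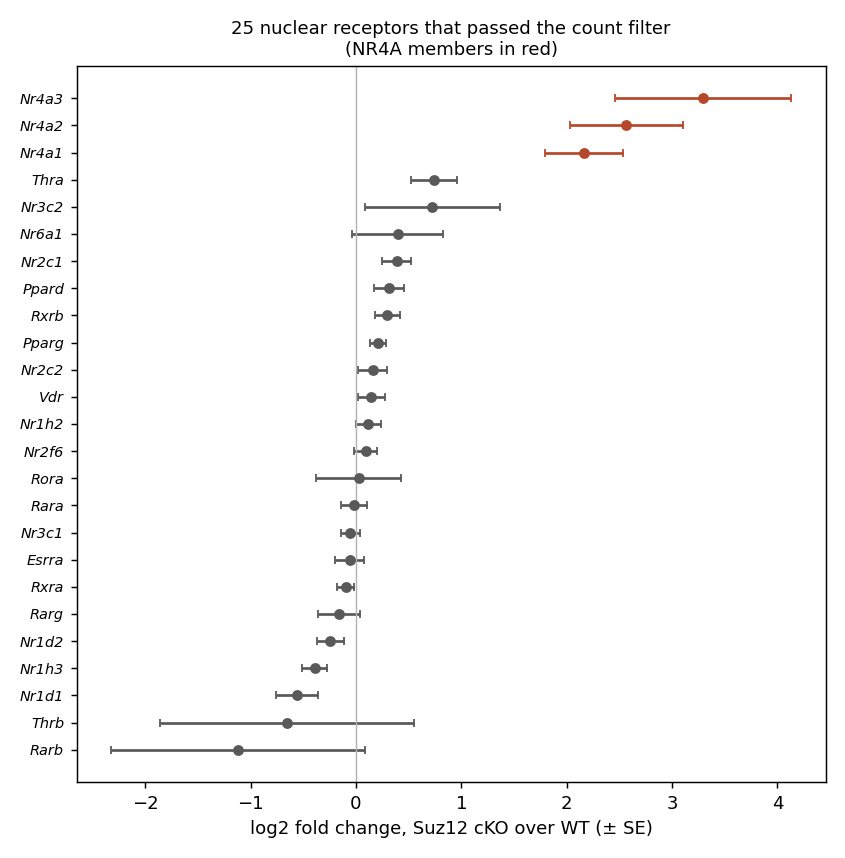
Log2 fold change of Suz12 cKO over WT (± SE, edgeR) for the 25 nuclear receptors that passed the count filter, NR4A members in red and the others in grey. The members stand at 2.16, 2.57 and 3.30, and the next receptor, Thra, at 0.74.

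The immediate early class, to which the family belongs, was followed through 40 other genes chosen with earlier results of these data known. Of the 38 tested, 13 were higher and 2 lower in cKO, or 39.5% called, against 19.9% of all tested genes. The 13 include Egr3 and Fosl1, which had 0 counts in WT. These passed the count filter through the cKO libraries alone, so their calls are not read as tests, though the 39.5% counts them. The median log2 fold change was 0.54, also with genes absent from WT set at their lower bounds. Csrnp1 rose to 179 ± 26.3 CPM in cKO, against 64.8 ± 16.9 CPM in WT (edgeR log2 fold change 1.47, SE 0.16, adjusted p = 9.32e-05). Atf3, a stress-induced ATF family factor, rose to 237 ± 20.2 CPM in cKO, against 84.8 ± 26.5 CPM in WT (1.49, SE 0.17, adjusted p = 1.29e-04). Fosl2, an AP-1 subunit, rose to 566 ± 66.9 CPM in cKO, against 270 ± 58.5 CPM in WT (1.07, SE 0.13, adjusted p = 1.54e-04). Each of the 3 was higher in every cKO library than in every WT library, as were 10.9% of all tested genes.

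Not every gene of the class was higher. Fos, the most abundant per kilobase, was at 1721, 1915, 1541, 1624 and 1825 CPM in cKO libraries 1 to 5, against 953, 1844, 2128 and 2029 CPM in WT libraries 1 to 4, and was not called (log2 fold change -0.01, SE 0.19, adjusted p = 0.977). Dusp1, a phosphatase of MAP kinases, fell to 244 ± 25.4 CPM in cKO, against 497 ± 158 CPM in WT (-1.03, SE 0.20, adjusted p = 0.005). Rgs1, a regulator of G protein signalling, fell to 51.5 ± 12.0 CPM in cKO, against 112 ± 45.6 CPM in WT (-1.12, SE 0.28, adjusted p = 0.0186), and without cKO library 5 (adjusted p = 0.0515) or with a gene length offset it was not called. Dusp1 was not called with the replicate number as a block (adjusted p = 0.0705, edgeR). For both Dusp1 and Rgs1 the groups overlapped, with cKO library 2 above WT library 1. Egr3 and Fosl1, named after their values were seen, had 0 counts in every WT library and 3.63 ± 2.58 and 1.48 ± 0.86 CPM in cKO, at least 101-fold and at least 41.0-fold higher against a floor of 3 counts over the WT group. The mean log2 CPM of the 38 genes was 6.58, 7.09, 6.76, 6.73 and 6.74 in cKO libraries 1 to 5, against 5.39, 5.83, 6.37 and 5.75 in WT libraries 1 to 4. WT library 3 was thus the highest of its group and library 1 the lowest, the order of each NR4A gene.

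**Figure D5:**
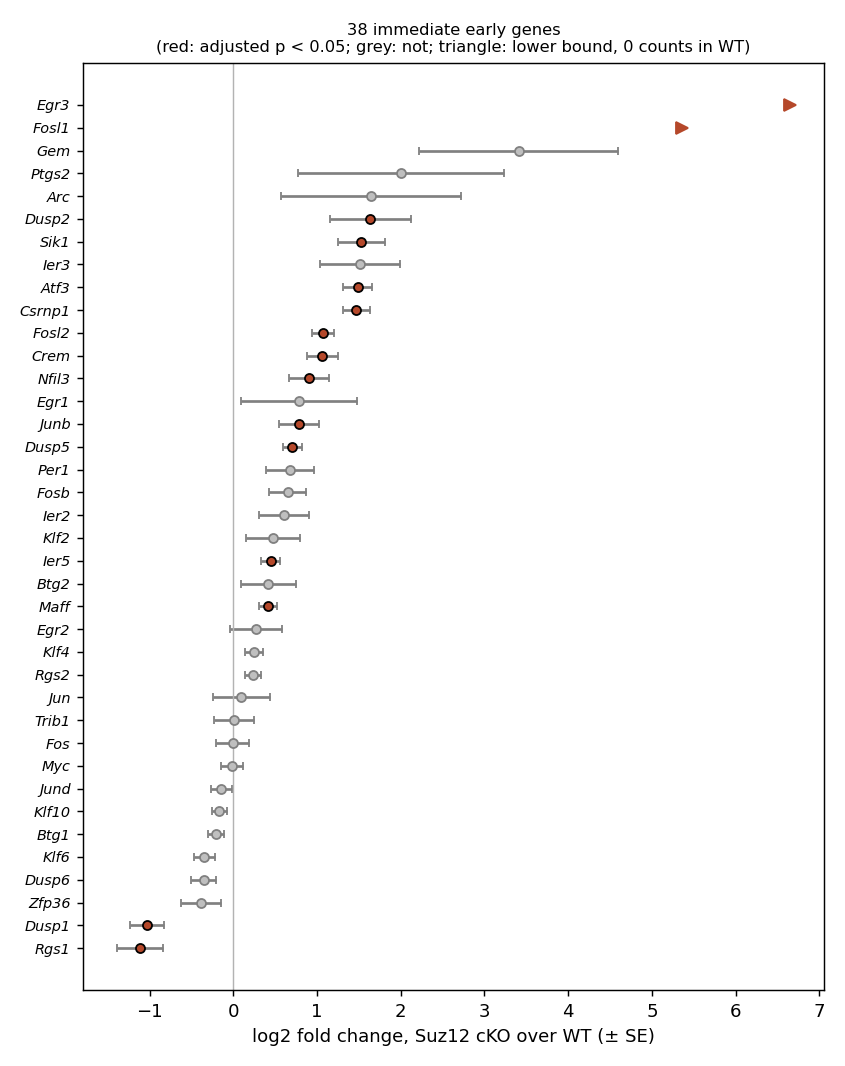
Log2 fold change of Suz12 cKO over WT (± SE, edgeR) for 38 immediate early genes other than the NR4A family, red where the adjusted p was under 0.05, with triangles for lower bounds of genes at 0 counts in WT. Called genes run from Rgs1 at -1.12 to the bounds of Fosl1 and Egr3, and Fos lies at -0.01.

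Among genes of cAMP and CREB signalling, the best known inputs to NR4A transcription, 5 of 28 tested were higher and 1 lower, or 21.4%, near the 19.9% of all genes, with a median log2 fold change of 0.08. Pde4b, a phosphodiesterase that degrades cAMP, rose to 137 ± 27.0 CPM in cKO, against 44.1 ± 6.03 CPM in WT (1.63, SE 0.15, adjusted p = 2.57e-05 by edgeR). Sik1, a kinase that holds CREB coactivators in the cytoplasm, rose to 132 ± 12.8 CPM in cKO, against 45.7 ± 19.97 CPM in WT (1.53, SE 0.28, adjusted p = 0.00423). Crem, a CREB relative with repressor isoforms, rose to 15.7 ± 2.70 CPM in cKO, against 7.49 ± 1.20 CPM in WT (1.06, SE 0.19, adjusted p = 0.00146). These 3 are also feedback genes that CREB itself induces, and Sik1 and Crem are counted in the immediate early list as well. The most abundant gene of the list per kilobase, the kinase subunit Prkar2b, was not called (-0.14, SE 0.10). Crem overlaps a predicted gene.

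Genes of calcium and MEF2 signalling gave 2 higher and 1 lower of 21 tested, or 14.3% against 19.9% of all tested genes (median log2 fold change 0.19). Ppp3ca, a catalytic subunit of calcineurin, rose to 74.2 ± 4.40 CPM in cKO, against 53.9 ± 7.23 CPM in WT (0.46, SE 0.10, adjusted p = 0.00599 by edgeR). Camk1, a calmodulin-dependent kinase whose span overlaps Ogg1, fell to 187 ± 12.2 CPM in cKO, against 274 ± 5.64 CPM in WT (-0.55, SE 0.07, adjusted p = 2.47e-04) and was the most abundant of the list per kilobase. Camk4, another such kinase, had 1.56 ± 0.688 CPM in cKO and 0.137 ± 0.274 CPM in WT, all of it in library 1. Its call (3.43, SE 1.14, adjusted p = 0.0477) was lost in 8 of 9 fits that left out 1 library, all but that without WT library 1. Camk4 passed the count filter through the cKO libraries, so its call is not read as a test, though the 14.3% counts it. Its span overlaps another counted gene.

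In the SRF and ERK list, 1 of 14 tested genes was called by edgeR, as lower, or 7.14%. Of all tested genes, 11% were called lower and 19.9% in either direction. The call in this list was lost on leaving out any 1 library. With 1 library left out, edgeR called 0 genes of the list (1 or 2 at an unadjusted p under 0.05), except without WT library 2, where 1 was called higher. The most abundant member per kilobase, Mapk3 (ERK1), was not called (-0.06, SE 0.08). In the NF-kB list, 3 of 12 were higher and 0 lower, or 25%, against 8.97% of all tested genes called higher and 19.9% called in either direction. The list median was 0.18. Rel, a subunit of myeloid and lymphoid cells, rose to 36.0 ± 5.43 CPM in cKO, against 22.2 ± 2.79 CPM in WT (0.70, SE 0.14, adjusted p = 0.00305 by edgeR). Relb (0.51, adjusted p = 0.0236) and the inhibitor Nfkbib (0.40, adjusted p = 0.0357) were called by a narrower margin, Relb up to 0.071 and Nfkbib up to 0.0853 with 1 library left out. Both calls failed without cKO library 1 or WT library 1. With the replicate number as a block they failed too (adjusted p = 0.0529 for Relb and 0.0791 for Nfkbib, edgeR). That of Relb also failed without cKO library 2. That of Nfkbib also failed without cKO library 3 or 5 or WT library 2, or with an Xist covariate. The inhibitor Nfkbia, most abundant of this list per kilobase and itself an NF-kB target, was at 94.9 to 198 CPM in cKO and at 64.6, 53.1, 227 and 91.1 CPM in WT libraries 1 to 4, so that WT library 3 was again the highest of its group. It was not called (0.43, SE 0.45), except without WT library 3 (1.09, adjusted p = 0.0108).

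Among partners and coregulators, 1 of 16 tested genes was called, as higher, or 6.25%. Of all tested genes, 8.97% were called higher and 19.9% in either direction. Kdm1a, a histone demethylase of the CoREST complex, which Nr4a2 can recruit, rose to 54.5 ± 2.73 CPM in cKO, against 40.5 ± 5.13 CPM in WT (0.43, SE 0.10, adjusted p = 0.0107 by edgeR), and its span overlaps Luzp1. Rxra, the partner receptor with the highest level per kilobase, was at 250 ± 11.1 CPM in cKO and 267 ± 25.1 CPM in WT and was not called (-0.10, SE 0.08).

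Of 25 genes reported elsewhere as NR4A targets, in tissues from the adrenal gland to T cells, 12 were tested. Another 5 were at 0 in every library. Of the tested targets 2 were called higher and 0 lower, or 16.7%, with a median log2 fold change of 0.08. Of all tested genes, 8.97% were called higher and 19.9% in either direction. Tox, a chromatin factor of exhausted T cells, had 0 counts in every WT library and 1.37, 1.70, 0.694, 0.984 and 2.24 CPM in cKO libraries 1 to 5, at least 38.8-fold higher against the WT floor. It passed the count filter through the cKO libraries alone, so its call is not read as a test, though the 16.7% counts it. Spp1, the secreted protein osteopontin and the most abundant of the list per kilobase, was at 706 ± 191 CPM in cKO and 483 ± 28.4 CPM in WT (0.55, SE 0.18, adjusted p = 0.0475), with cKO library 3 (422 CPM) below every WT library. Its call was lost on leaving out any 1 library other than cKO library 3 (adjusted p of up to 0.109), and without that library it was 4.18e-04. The other 10 tested genes were not called.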

How the data were processed

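Raw counts per gene were deposited for 9 libraries, made with featureCounts on mm10 per the submitters' processing notes, with gene lengths in bases. The sources used here name no aligner, version or strand setting. The series text gives TruSeq libraries and single reads of 85 bases. All 9 single-library tables equalled the joint table, which was used. RefSeq (GRCm38.p6) named 25275 of 27179 identifiers and gave the promoters. Labels call the libraries biological replicates.

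Counts were tested with edgeR 4.0.16 in R 4.3.3 (TMM, filterByExpr, robust quasi-likelihood, Benjamini-Hochberg over 12840 genes, threshold 0.05, no covariate). Log2 CPM used a prior count of 2. Alternatives used DESeq2 1.42.0, limma 3.58.1 voom, other scalings and filters, equal depth, a gene length offset (loess, span 0.5), a replicate block, an Xist covariate and leaving out each library. Members and lists were chosen with earlier results of these data known. Named genes were, per list, the 3 smallest adjusted p in each direction and the most abundant per kilobase, plus the 3 nearest to each member in pattern, and some of these are not reported here.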

Additional observations from a re-analysis of the deposited data

Results flagged for a closer look

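In groups of 4 or 5 libraries, a value was singled out where its gap to the next, divided by the group's range, exceeded Dixon's critical value at the 95% level. Of 90 groups of values examined, 8 were singled out, and chance flags about 1 in 20.

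WT library 3 stood apart for Nr4a3, at 12.0 CPM against 1.96 CPM in the next WT library (gap over range 0.887). The share of Nr4a3 in the summed NR4A level per kilobase was likewise 5.14% in WT library 3 and 1.65% in the next (0.879). Without this library the log2 fold changes were 2.62 for Nr4a1, 3.08 for Nr4a2 and 4.80 for Nr4a3.

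Camk4 was highest in cKO library 5 (2.76 CPM, next 1.46), and among WT libraries it was counted only in library 1 (0.548 CPM).

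Among marker sums, that of neutrophils was highest in cKO library 3 (107 CPM, next 33.6), that of T and NK cells in cKO library 5 (10.9 CPM, next 3.26) and that of B cells in cKO library 2 (11.1 CPM, next 7.20). The mast cell and basophil markers were counted in WT only in library 1 (0.0913 CPM). None of these libraries was the highest of its group for all 3 NR4A genes except cKO library 2, and the part of these cells in the NR4A values was not tested.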

How the results depend on the processing

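The log2 fold changes of Nr4a1, Nr4a2 and Nr4a3 kept their direction in all 19 alternatives each. With 1 library left out they were 1.93 to 2.62 (Nr4a1), 2.29 to 3.08 (Nr4a2) and 2.93 to 4.80 (Nr4a3), and under the other settings 2.13 to 2.38, 2.48 to 2.81 and 3.15 to 4.25, including 2.17, 2.58 and 3.20 at equal depth. With the replicate number as a block they were 2.29, 2.63 and 3.94, with adjusted p by edgeR of 0.0193, 0.0913 and 0.135. Same-numbered libraries did not deviate together over the tested genes (r from -0.06 to 0.11), so the numbers are not taken as pairs. The block gave 1852 called genes in place of 2561.

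The count of called immediate early genes, 15, ran from 12 to 19 with 1 library left out and from 13 to 19 otherwise. CREB and cAMP genes ran from 5 to 9. Small counts moved more. Other nuclear receptors, 2 in the reported fit, gave 4 with library size only, 5 with DESeq2, 4 with the length offset, 1 with the Xist covariate and 0 by edgeR with the block (5 at an unadjusted p under 0.05), and 0 to 4 with 1 library left out. MEF2 and calcium genes, 3, gave 7 with library size only and 5 with DESeq2, and 2 to 4 with 1 library left out. Partners, 1, gave 4 with library size only, 3 with DESeq2, 4 with the length offset (2 of them lower) and 2 at equal depth or with the Xist covariate, and 1 to 3 with 1 left out. SRF and ERK genes, 1 lower, gave 2 higher with library size only and 0 by edgeR without a filter, at equal depth or with the block (2, 1 and 1 at an unadjusted p under 0.05), while DESeq2 gave 1, and 0 to 1 with 1 left out. Reported targets, 2, gave 1 with voom, the length offset, equal depth or the Xist covariate, and 1 to 3 with 1 left out. NF-kB genes gave 1 to 5 with 1 left out. The r between members ran from 0.77 to 0.97 (Nr4a1 with Nr4a2), 0.77 to 0.95 (Nr4a1 with Nr4a3) and 0.85 to 0.94 (Nr4a2 with Nr4a3) with 1 library left out, and without the 2 farthest libraries it was 0.66 and 0.63 for the pairs with Nr4a1. The cause of these changes was not tested. Low WT counts limit the precision of Tox, Egr3, Fosl1 and Camk4. For Nr4a3, WT libraries 1 and 3 differed by more than counting error. The SE of its log2 fold change was 0.84 with all libraries and 0.40 without WT library 3.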
